A study of Mus musculus with 6 samples.

Results

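The genes described here make, activate, burn and store fatty acids in NIH3T3 cells, an immortalised line of mouse embryonic fibroblasts. They are the rows of the deposited tables whose gene name is on a list of 35 symbols, out of 55401 genes in all, and all 35 were found. The list was divided by role into 13 genes of synthesis, elongation and desaturation, 4 acyl-CoA synthetase genes, 12 genes of mitochondrial oxidation and its control, and 6 genes of PPAR receptors, lipid storage and uptake. Polyadenylated RNA was sequenced in 3 libraries of wild-type cells given IPRN and 3 of wild-type cells given the vehicle DMSO. Angelicin, a furanocoumarin made by plants, stands in the title of the series, and the design text says that hydrogen peroxide and TGF-β were used to push the cells towards a state resembling cancer-associated fibroblasts. The labels give no dose or time, do not say whether the DMSO cells also received both stimuli, and do not say whether the libraries came from separate cultures, so p-values measure only the spread between these libraries.

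Cells build fatty acids in the cytosol: ATP citrate lyase supplies acetyl-CoA, acetyl-CoA carboxylase makes malonyl-CoA, and fatty acid synthase assembles palmitate, which elongases and desaturases then modify. Transcription of this route is driven largely by SREBP1, a membrane-bound factor that is released for cleavage when its escort SCAP is freed from INSIG proteins. Oxidation runs in mitochondria, where the carnitine shuttle imports acyl chains and a set of dehydrogenases shortens them, and many of its genes respond to PPAR nuclear receptors that bind fatty acids. Fibroblasts use both routes mainly for membrane lipid and fuel. The comparison asked which genes and pathways the compound altered in these cells, and the contrast examined here is that of SREBP1-type synthesis genes with PPAR-type oxidation genes.

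Total counts ran from 63594179 to 74183334 in IPRN libraries and from 60320282 to 78629444 in DMSO libraries. All 12 fibroblast markers looked up, among them Col1a1, Col1a2 and Vim, were present in every library, and they summed to 27075, 29713 and 28957 CPM in IPRN 1, 2 and 3, against 25004, 24470 and 25519 CPM in DMSO 1, 2 and 3 (CPM, counts scaled to a common library size after TMM normalization). The sums did not overlap, and 3 of the 12 markers, Col5a1, Fn1 and Fbn1, were called higher in IPRN by edgeR. Markers of 21 hepatocyte genes, counted without Hp, summed to 122, 43.9 and 4.84 CPM in IPRN 1, 2 and 3, against 4.54, 64.7 and 37.6 CPM in DMSO 1, 2 and 3. Of these markers 16 were at 0 in IPRN 3 and 16 in DMSO 1, Alb among those at 0 in DMSO 1 and at 0.186 CPM in IPRN 3. Hp, at 14.97 to 15.97 CPM in IPRN and 39.4 to 41.2 CPM in DMSO libraries, was present at a like level in the libraries with and without the other liver transcripts of each group. The 8 macrophage markers summed to 126 CPM in IPRN 3, against 15.4 and 15.8 CPM in IPRN 1 and 2 and 3.25 to 14.6 CPM in DMSO libraries. The 8 adipocyte markers summed to 3.35 to 11.4 CPM in IPRN and 5.46 to 13.6 CPM in DMSO libraries. The part of such transcripts in the results was not tested, and fold changes were also computed without IPRN 3 and DMSO 1.

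Per gene length, the synthesis genes were the most abundant of the 4 groups (FPKM, fragments scaled by gene length and library size, as the authors deposited them). Their summed level was 509 ± 22.8 FPKM in IPRN and 506 ± 4.28 FPKM in DMSO cells (SD, n = 3 each). The oxidation genes summed to 143 ± 4.55 FPKM in IPRN and 141 ± 2.55 FPKM in DMSO cells. The acyl-CoA synthetases summed to 51.9 ± 1.02 FPKM in IPRN and 63.8 ± 0.704 FPKM in DMSO cells. Only in the last of these sums did the libraries of the groups stay apart, at 51.1 to 53.0 FPKM in IPRN and 63.4 to 64.6 FPKM in DMSO. Scd2 stood first among the 35 genes at a mean of 106 FPKM over all libraries, followed by Fads2 at 83.3, Acly at 69.9, Fads1 at 52.7 and Fasn at 49.5 FPKM. Acadl, at 40.3 FPKM, led the oxidation genes, and Pparg, at 0.0288 FPKM, stood last of all.

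**Figure D1:**
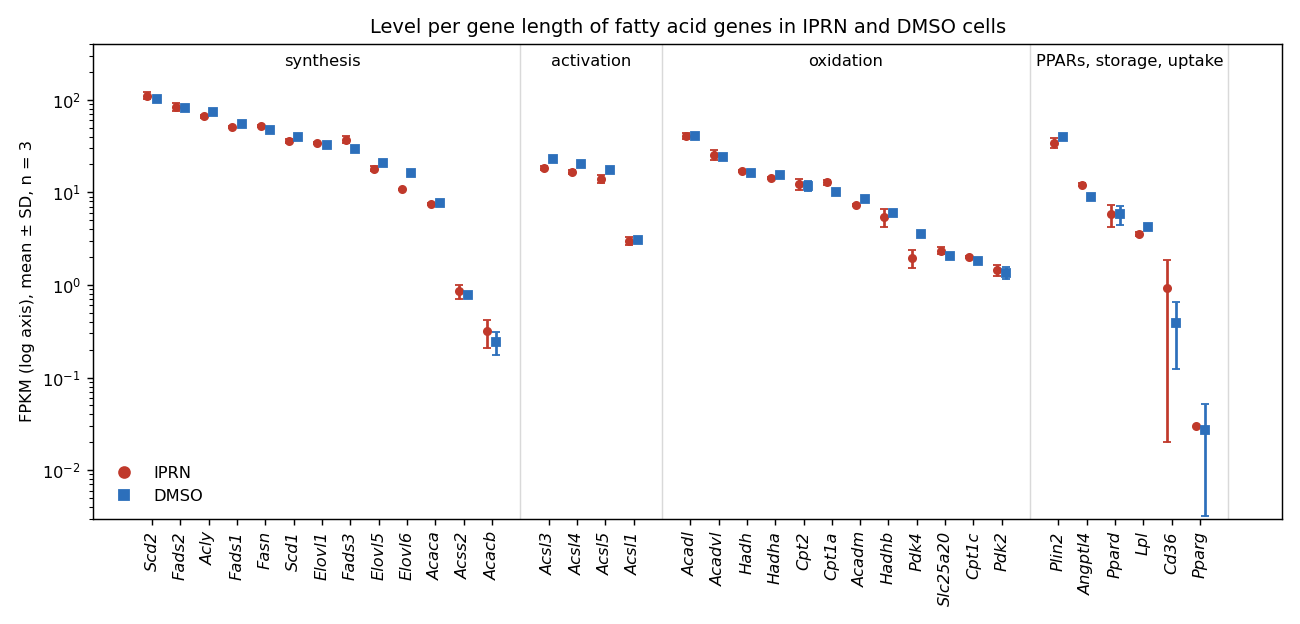
Deposited FPKM of each gene on a log axis, grouped by role and ordered by level within a role; red circles are IPRN means and blue squares DMSO means, with bars of 1 SD over 3 libraries, left out where the SD exceeds the mean. Scd2 is at the top, Acss2, Acacb, Cd36 and Pparg lie below 1 FPKM, and the gaps between groups are small beside the range over genes.

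Of the 35 genes, 34 passed the filter on low counts, and 7 of them (20.6%) changed under IPRN at an adjusted p under 0.05 in edgeR's quasi-likelihood test, against 5.47% of all 17159 tested genes. Fads3, Cpt1a and Angptl4 rose, and Elovl6, Acsl3, Acsl4 and Pdk4 fell. The changes were modest, from a 1.83-fold fall in Pdk4 to a 1.35-fold rise in Angptl4. All IPRN libraries lay above all DMSO libraries in CPM for 8 of the 34 genes and below them for 11, against 14.9% and 14.7% of all tested genes, or 29.6% in either direction. The 95% interval of the fold change lay within 1.5-fold in either direction for 30 of the 34. Without IPRN 1, 3 members were higher and 4 lower, against 2.54% and 3.32% of all tested genes (5.86% in either direction), with Elovl5 called in place of Pdk4. Without IPRN 3 and DMSO 1 together 0 members were called in edgeR (adjusted p from 0.111 to 0.278 for the 7 genes). That fit called 0.0624% of all tested genes as higher and 0.238% as lower. In it 11 members were at an unadjusted p under 0.05, and the share of all tested genes at that level was not counted. With a covariate marking the libraries that held liver transcripts, Elovl6 (adjusted p = 0.0118), Pdk4 (0.0431) and Angptl4 (0.0444) were called in edgeR, and Acsl3 (0.0541), Cpt1a (0.0661), Acsl4 (0.0754) and Fads3 (0.0802) were not. Without IPRN 3 and DMSO 1, the log2 fold changes of the 7 genes were -0.60 for Elovl6, -0.36 for Acsl3, -0.23 for Acsl4, -0.71 for Pdk4, 0.41 for Fads3, 0.37 for Cpt1a and 0.45 for Angptl4, all in the direction found with 6 libraries. DESeq2 called 4 members as higher and 9 as lower, against 6.81% and 6.49% of all tested genes. In bulk libraries a lower value does not tell fewer expressing cells from less RNA per cell.

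Synthesis and oxidation genes did not part by direction. The median log2 fold change was 0.031 over the synthesis genes, of which Fads3 rose, Elovl6 fell and 11 did not pass. It was 0.066 over the oxidation genes, of which Cpt1a rose, Pdk4 fell and 10 did not pass, and 0.0016 over all tested genes. Adding the PPAR, storage and uptake genes to the oxidation genes gave 2 that rose, 1 that fell and 14 below the threshold (median 0.064). The 4 acyl-CoA synthetase genes were the group with all its log2 fold changes below 0, of which 2 fell, with a median of -0.31. The background for rises was 2.46% of all tested genes and that for falls 3.01%. Without IPRN 1 the median of the synthesis genes was -0.0315 and that of the oxidation genes 0.00871.

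**Figure D2:**
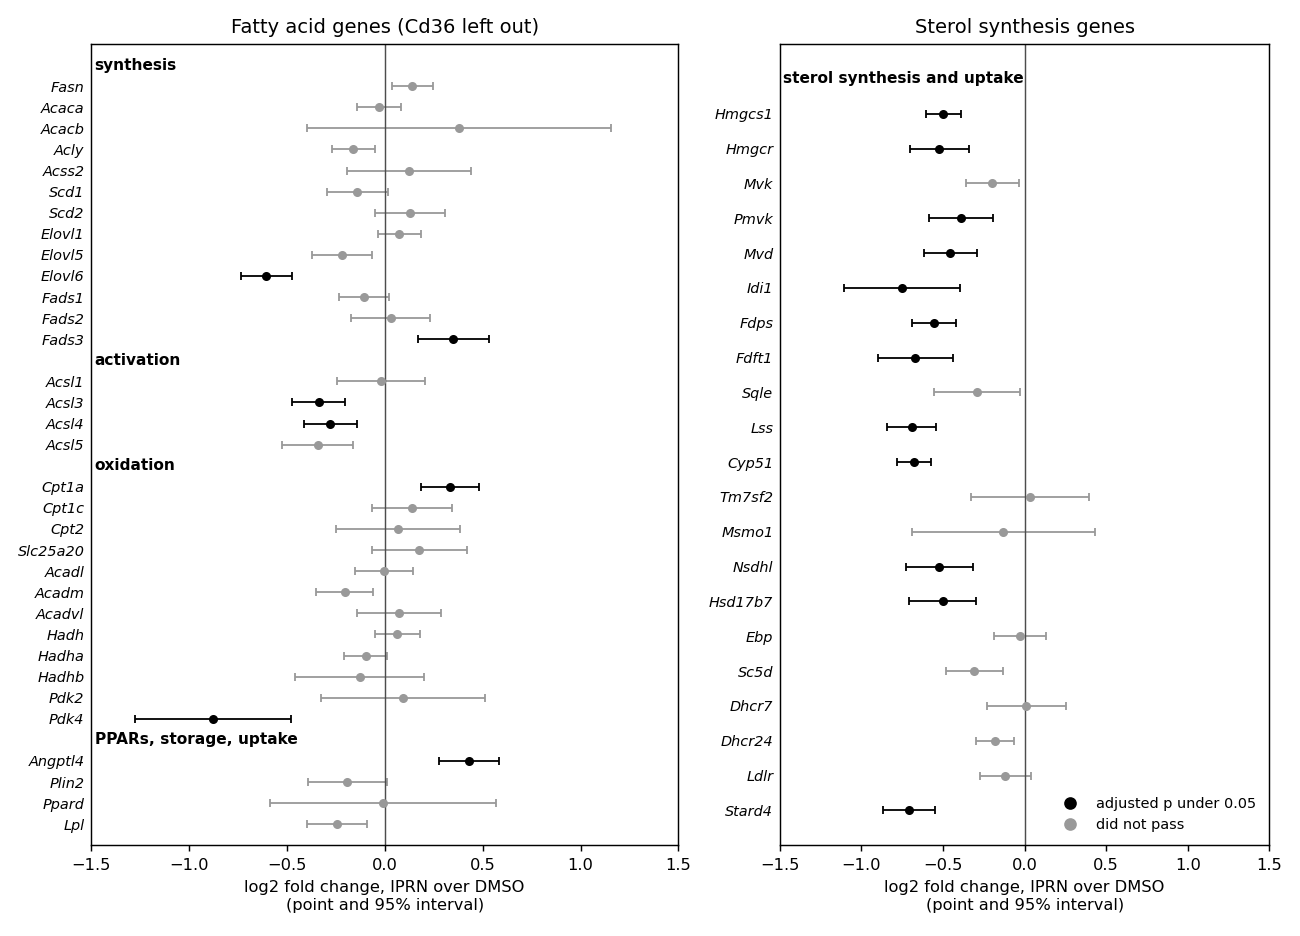
Log2 fold change of each tested gene, IPRN over DMSO, with its 95% interval from edgeR; black marks an adjusted p under 0.05 and grey marks genes that did not pass. Fatty acid genes lie on both sides of 0 in each role except activation, while 19 of 21 sterol synthesis genes lie below 0; Cd36, whose interval runs from -0.81 to 3.23, is left out.

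Elovl6, the elongase that extends palmitate to stearate and a well-known SREBP1 target, showed the smallest adjusted p among the 34 genes. It had 77.8, 77.9 and 75.7 CPM in IPRN 1, 2 and 3, against 117, 123 and 111 CPM in DMSO 1, 2 and 3. The IPRN libraries lay close together and all below the lowest DMSO library. Its mean was 77.1 ± 1.25 CPM in IPRN and 117 ± 6.14 CPM in DMSO cells (SD, n = 3 each), a 1.52-fold fall (log2 fold change -0.60 ± 0.0546 SE, edgeR adjusted p = 0.00285). It was the member that stayed called whichever library was left out (adjusted p from 0.00689 to 0.0252), a property shared by 0.647% of all tested genes. Without IPRN 3 and DMSO 1 together it was not called (adjusted p = 0.111) at a like log2 fold change of -0.60, in a fit that called 0.3% of all tested genes. Elovl6 (ENSMUSG00000041220) lies on chromosome 3 from 129532355 to 129634971, plus strand. A model on the opposite strand, Gm35986, shares an exon stretch with it, but was listed at no more than 0.0824 CPM in any library.

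The other elongases did not pass in edgeR with all libraries. Elovl5, which lengthens polyunsaturated chains, had 67.3 to 76.6 CPM in IPRN and 80.8 to 84.4 CPM in DMSO libraries without overlap (log2 fold change -0.22, adjusted p = 0.106), and was called when IPRN 1 was left out (edgeR adjusted p = 0.0289) and in DESeq2 (adjusted p = 0.0408). Elovl1, which makes very long saturated chains, ranged from 101 to 107 CPM in IPRN and from 96.7 to 99.97 CPM in DMSO libraries (log2 fold change 0.07, adjusted p = 0.427), and it shares an exon stretch with Cdc20.

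Fads3, a desaturase-like gene of the cluster that also holds Fads1 and Fads2, was the synthesis gene that rose. It had 175, 149.8 and 145 CPM in IPRN 1, 2 and 3, against 125, 121 and 123 CPM in DMSO 1, 2 and 3. All IPRN libraries lay above the DMSO libraries, and IPRN 1 stood above the other IPRN libraries. The rise was 1.28-fold (log2 fold change 0.35 ± 0.0757 SE, edgeR adjusted p = 0.0468). It was called without IPRN 1 but not with any other library left out (adjusted p from 0.0645 to 0.168). Its neighbours on chromosome 19 did not pass. Fads1, the Δ5 desaturase, had 274, 277 and 265 CPM in IPRN and 308, 276 and 294 CPM in DMSO libraries (log2 fold change -0.11, 95% interval -0.23 to 0.02, adjusted p = 0.314). Fads2, the Δ6 desaturase, had 351, 288 and 288 CPM in IPRN and 297, 295 and 314 CPM in DMSO libraries, with IPRN 1 the highest of all 6 (log2 fold change 0.03, 95% interval -0.17 to 0.23, adjusted p = 0.891). The FPKM of Fads3 relative to that of Fads2 was 0.441 ± 0.0101 in IPRN and 0.353 ± 0.0130 in DMSO cells (SD, n = 3 each). The libraries of the groups did not overlap in this ratio, which was not tested.

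Fatty acid synthase and the enzymes that feed it did not pass in edgeR. Fasn had 648, 642 and 608 CPM in IPRN and 581, 571 and 570.0 CPM in DMSO libraries. Every IPRN library was higher, yet the difference of 0.14 on the log2 scale (95% interval 0.04 to 0.25) did not pass (edgeR adjusted p = 0.120). Acly, the ATP citrate lyase gene, went the other way, with 388, 401 and 375 CPM in IPRN and 426, 433 and 442 CPM in DMSO libraries (log2 fold change -0.16, 95% interval -0.27 to -0.05, edgeR adjusted p = 0.0961). DESeq2 called both of these small differences (adjusted p = 0.0428 for Fasn and 0.0254 for Acly), in a test that called 13.3% of all tested genes. Acaca, the main acetyl-CoA carboxylase, had 143, 145 and 140.0 CPM in IPRN and 147, 140.0 and 150.1 CPM in DMSO libraries, with a 95% interval of the log2 fold change from -0.14 to 0.08. Acss2, which makes acetyl-CoA from acetate and shares exon stretches with neighbouring genes, was low, at 8.08, 10.003 and 11.0 CPM in IPRN and 9.14, 8.34 and 9.22 CPM in DMSO libraries (log2 fold change 0.12, adjusted p = 0.671). Acacb, the mitochondria-associated carboxylase and abundant in liver, ranged from 2.08 to 4.11 CPM in IPRN and from 1.85 to 3.28 CPM in DMSO libraries, and within each group it was lowest in the library almost free of liver transcripts, IPRN 3 and DMSO 1.

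The stearoyl-CoA desaturases, which introduce the first double bond and are classical SREBP1 targets, did not pass either. Scd1 had 209, 188 and 186 CPM in IPRN and 203, 226 and 213 CPM in DMSO libraries, with overlapping groups (log2 fold change -0.14, edgeR adjusted p = 0.279). Scd2 had 754, 640.1 and 627 CPM in IPRN and 619.6, 606 and 624 CPM in DMSO libraries (log2 fold change 0.13, edgeR adjusted p = 0.394). IPRN 1 was far above the other IPRN libraries in Scd2, and without it the log2 fold change was 0.04. The ratio of Scd2 to Scd1 in FPKM was 3.10 ± 0.112 in IPRN and 2.58 ± 0.170 in DMSO cells (SD, n = 3 each). The groups did not overlap in it, and each gene's own change was short of the threshold. Besides this ratio and that of Fads3 to Fads2, Cpt1a to Cpt1c did not overlap, while Acaca to Acacb and Hadha to Hadhb did. None of these ratios was tested, and the share of other gene pairs without overlap was not counted. Of single genes, 29.6% of all tested did not overlap in CPM.

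The letters before the transcription starts of 6 of the 7 members that changed are shown to let the promoters be compared, with Fasn beside them as the textbook SREBP1 target that did not pass in edgeR. Angptl4 has no entry in the RefSeq table used. They are the 250 bases upstream of the RefSeq start on GRCm38.p6, written 5′ to 3′ on the gene's strand. Capitals mark matches to CCAAT, the core of the box bound by NF-Y, a partner of SREBP factors, or to its reverse complement.
Elovl6, chr3:129532136-129532385, plus strand: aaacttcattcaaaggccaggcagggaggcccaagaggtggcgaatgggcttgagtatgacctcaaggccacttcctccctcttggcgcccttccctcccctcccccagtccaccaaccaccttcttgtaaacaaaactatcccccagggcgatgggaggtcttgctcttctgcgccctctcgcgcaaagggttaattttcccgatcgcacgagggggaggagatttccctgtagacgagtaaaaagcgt
Fads3, chr19:10041298-10041547, plus strand: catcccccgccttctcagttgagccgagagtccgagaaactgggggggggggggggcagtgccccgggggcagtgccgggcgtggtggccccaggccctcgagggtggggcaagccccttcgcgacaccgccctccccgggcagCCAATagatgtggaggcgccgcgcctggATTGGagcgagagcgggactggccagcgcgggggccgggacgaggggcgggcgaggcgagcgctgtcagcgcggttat
Acsl3, chr1:78657575-78657824, plus strand: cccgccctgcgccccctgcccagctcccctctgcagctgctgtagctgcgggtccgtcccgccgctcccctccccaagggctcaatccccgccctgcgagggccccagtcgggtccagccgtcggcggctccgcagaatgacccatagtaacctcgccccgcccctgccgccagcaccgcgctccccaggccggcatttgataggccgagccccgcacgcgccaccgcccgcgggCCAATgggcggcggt
Acsl4, chrX:142390536-142390785, minus strand: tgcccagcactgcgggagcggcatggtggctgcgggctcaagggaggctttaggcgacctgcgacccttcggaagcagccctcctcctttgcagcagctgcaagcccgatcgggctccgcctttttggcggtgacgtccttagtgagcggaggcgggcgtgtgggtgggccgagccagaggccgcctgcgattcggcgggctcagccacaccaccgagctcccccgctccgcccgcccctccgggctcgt
Cpt1a, chr19:3323051-3323300, plus strand: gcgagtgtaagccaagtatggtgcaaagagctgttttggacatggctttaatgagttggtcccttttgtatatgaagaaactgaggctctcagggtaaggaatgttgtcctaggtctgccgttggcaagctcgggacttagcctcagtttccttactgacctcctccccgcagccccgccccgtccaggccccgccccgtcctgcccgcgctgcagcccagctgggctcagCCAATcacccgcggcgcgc
Pdk4, chr6:5496279-5496528, minus strand: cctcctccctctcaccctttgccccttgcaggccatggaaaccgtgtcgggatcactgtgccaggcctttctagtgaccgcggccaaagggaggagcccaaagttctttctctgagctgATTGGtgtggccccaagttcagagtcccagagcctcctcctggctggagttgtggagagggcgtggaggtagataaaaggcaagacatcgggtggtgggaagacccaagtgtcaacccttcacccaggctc
Fasn, chr11:120824548-120824797, minus strand: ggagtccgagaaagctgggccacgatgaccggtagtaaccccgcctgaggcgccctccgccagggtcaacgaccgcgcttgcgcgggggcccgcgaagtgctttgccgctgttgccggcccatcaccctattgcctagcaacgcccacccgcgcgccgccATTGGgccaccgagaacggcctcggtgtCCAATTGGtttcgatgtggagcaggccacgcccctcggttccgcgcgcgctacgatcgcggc
The windows of Elovl6 and Acsl4 held no CCAAT on either strand, that of Fads3 held 2, those of Acsl3, Cpt1a and Pdk4 held 1 each, and that of Fasn held 3, of which 2 overlap by 2 bases. The Cpt1a window starts within the gene as the deposited tables bound it, since their model begins at 3322334. The windows of Elovl6 and Pdk4 run into their genes at the 3′ end. Their deposited models begin at 129532355 on the plus strand and at 5496309 on the minus strand.

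Entries were found for 30 of the 35 members, with 35 starts in all. CCAAT or its reverse complement was in 54.3% of these windows, against 33.8% of all 32851 in the RefSeq table. It was in 82.4% of the windows of the sterol synthesis genes used for comparison. By role it was in 54.5% of 11 synthesis and 38.5% of 13 oxidation windows. For acyl-CoA synthetases it was in 60.0% of 5 windows, and for PPAR, storage and uptake genes in 83.3% of 6. The palindrome CACGTG, an E-box that SREBP1 and other factors can bind, was in the windows of Elovl5 and Pdk2, or 5.71% of those of members, against 6.02% of all. Exact letters of a sterol regulatory element, with 1 free position, and of a DR1 repeat, the type bound by PPAR with RXR, were in none of the members' windows on either strand. They were in 0.192% (sterol regulatory element) and 0.0335% (DR1) of all windows, and letters this rare are seldom met in 35 windows of any kind. The 17 windows of the sterol synthesis genes used for comparison also held 0 of either. Lack of a match to these exact letters within 250 bases therefore does not tell whether a site is present, there or elsewhere.

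Acyl-CoA synthetases attach coenzyme A to free fatty acids, which commits them to either membrane lipid or oxidation. Acsl3, the isoform of the endoplasmic reticulum and lipid droplets, had 91.5, 83.9 and 91.8 CPM in IPRN 1, 2 and 3, against 113, 116 and 108 CPM in DMSO 1, 2 and 3. All IPRN libraries were below all DMSO libraries, a 1.26-fold fall (log2 fold change -0.34 ± 0.0573 SE, edgeR adjusted p = 0.0257). Acsl3 shares an exon stretch with Utp14b on the same strand, listed at 15.3 to 16.9 CPM in IPRN and 18.4 to 19.1 CPM in DMSO libraries. Acsl4, which prefers arachidonic acid and is known for its role in ferroptosis, had 106, 99.9 and 94.2 CPM in IPRN, against 123, 123 and 118 CPM in DMSO libraries. Its groups did not overlap either, and it fell 1.21-fold (log2 fold change -0.28 ± 0.0573 SE, edgeR adjusted p = 0.0421). Both calls held without IPRN 1 and were lost with any other library left out (adjusted p from 0.0623 to 0.122 for Acsl3 and from 0.102 to 0.163 for Acsl4).

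Acsl5, a mitochondrial and reticular isoform, had 67.8 to 79.9 CPM in IPRN and 91.5 to 101 CPM in DMSO libraries. It had a log2 fold change as large as that of Acsl3, at -0.34, but just missed the threshold (edgeR adjusted p = 0.0526). Acsl5 passed in DESeq2 (adjusted p = 0.00288) and limma-voom (adjusted p = 0.0458). It shares an exon stretch with Zdhhc6, listed at 42.7 to 64.3 CPM in IPRN and 48.8 to 68.2 CPM in DMSO libraries. Acsl1, the isoform of fat, heart and liver, had 39.3, 31.6 and 34.2 CPM in IPRN and 33.8, 36.5 and 36.1 CPM in DMSO libraries. Those groups overlapped, and the interval of its log2 fold change ran from -0.24 to 0.21. Per gene length Acsl3, Acsl4 and Acsl5 lay between 13.9 and 18.4 FPKM in IPRN and between 17.5 and 23.2 FPKM in DMSO cells, and Acsl1 at 3.003 FPKM in IPRN and 3.03 FPKM in DMSO cells.

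**Figure D3:**
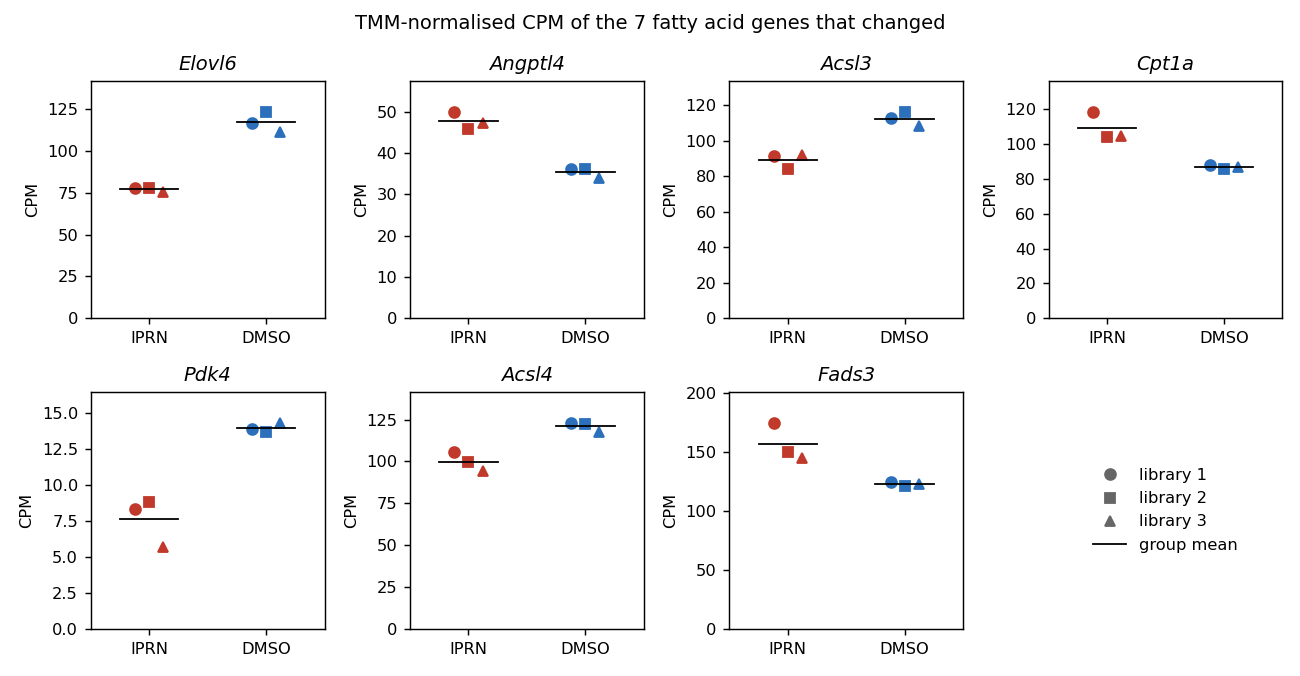
TMM-normalised CPM in each library for the 7 genes that changed, ordered by adjusted p, with IPRN in red left of DMSO in blue; symbols mark library 1, 2 or 3 and lines the group means. The groups do not overlap in any panel, IPRN 1 lies above IPRN 2 and 3 for Cpt1a and Fads3, and IPRN 3 lies lowest for Pdk4.

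Mitochondrial import was represented by the carnitine palmitoyltransferases and the carrier. Cpt1a, the rate-limiting enzyme of import and a PPAR target, had 118, 104 and 105 CPM in IPRN 1, 2 and 3, against 87.7, 85.5 and 86.6 CPM in DMSO 1, 2 and 3. Every IPRN library exceeded every DMSO library, and the rise was 1.26-fold (log2 fold change 0.33 ± 0.0629 SE, edgeR adjusted p = 0.0328). The call held without IPRN 1 (adjusted p = 0.0214) and not with any other library left out (0.0684 to 0.136). Cpt1c, the mainly neuronal paralogue, had 12.5 to 12.8 CPM in IPRN and 10.8 to 12.1 CPM in DMSO libraries (log2 fold change 0.14, adjusted p = 0.423). Cpt2, the inner membrane enzyme, had 38.2, 28.9 and 30.8 CPM in IPRN and 30.5, 35.1 and 27.7 CPM in DMSO libraries, with overlapping groups. Slc25a20, the carnitine carrier, was at 11.5 to 13.4 CPM in IPRN and 10.8 to 11.9 CPM in DMSO libraries (log2 fold change 0.18, adjusted p = 0.381).

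Of the 6 dehydrogenase and trifunctional protein genes 0 passed in edgeR or limma-voom and 1 in DESeq2, with 1 at an unadjusted p under 0.05. Acadl, the long-chain dehydrogenase, had 86.2, 97.0 and 86.2 CPM in IPRN and 93.0, 88.5 and 88.7 CPM in DMSO libraries, and the interval of its log2 fold change ran from -0.15 to 0.15. Acadm, the medium-chain enzyme, was lower in each IPRN library, with 31.8, 32.6 and 31.5 CPM in IPRN and 37.3, 37.0 and 36.2 CPM in DMSO libraries (log2 fold change -0.20, 95% interval -0.35 to -0.06, edgeR adjusted p = 0.106). It was the gene that DESeq2 called (adjusted p = 0.0302). Acadvl, the very-long-chain enzyme, ranged from 66.2 to 82.6 CPM in IPRN and from 69.2 to 74.2 CPM in DMSO libraries, and it shares an exon stretch with Dvl2. Hadh, a short-chain hydroxyacyl-CoA dehydrogenase, was at 92.1 to 95.1 CPM in IPRN and 86.3 to 92.0 CPM in DMSO libraries (log2 fold change 0.06, adjusted p = 0.515).

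Hadha and Hadhb encode the subunits of the mitochondrial trifunctional protein and lie head to head on chromosome 5, with the start of Hadha at 30155162 on the minus strand and that of Hadhb at 30155248 on the plus strand. Hadha had 137, 141 and 139.6 CPM in IPRN and 153, 143 and 151 CPM in DMSO libraries (log2 fold change -0.10, adjusted p = 0.285). Hadhb had 34.5 to 49.7 CPM in IPRN and 43.4 to 44.1 CPM in DMSO libraries, with IPRN 3 above and IPRN 1 and 2 below every DMSO library (log2 fold change -0.13, adjusted p = 0.677). Their FPKM ratio was 3.01, 2.96 and 2.12 in IPRN 1, 2 and 3 and 2.45 to 2.65 in DMSO libraries. All IPRN libraries thus lay outside the DMSO range, IPRN 1 and 2 above it and IPRN 3 below it. Hadha, Scd2, Acsl1 and Cpt1c also share exon stretches with other gene models.

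The pyruvate dehydrogenase kinases, which hold back the use of glucose carbon when fat is burned, differed from each other. Pdk4, a strong PPAR and glucocorticoid target, had 8.30, 8.82 and 5.70 CPM in IPRN 1, 2 and 3, against 13.9, 13.7 and 14.3 CPM in DMSO 1, 2 and 3. The DMSO libraries were within 1 CPM of each other and all IPRN libraries lay below them. This was the largest fall among the tested members, 1.83-fold (log2 fold change -0.88 ± 0.168 SE, edgeR adjusted p = 0.0346). Without IPRN 3 the gene was still called (adjusted p = 0.0380) at -0.71, and with any other library left out it was not (0.0515 to 0.126). Pdk2 had 5.81, 5.23 and 4.25 CPM in IPRN and 5.04, 3.97 and 5.30 CPM in DMSO libraries (log2 fold change 0.10, 95% interval -0.32 to 0.51, adjusted p = 0.826). Pdk4 and Cpt1a, both PPAR targets in liver and muscle, thus moved in opposite directions.

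Among PPAR receptors, storage and uptake genes, Angptl4 rose. It encodes a secreted inhibitor of lipoprotein lipase and is a sensitive PPAR target that hypoxia, glucocorticoids and TGF-β also act on. It had 49.95, 45.9 and 47.3 CPM in IPRN 1, 2 and 3, against 36.1, 36.1 and 34.0 CPM in DMSO 1, 2 and 3. The groups were well apart, a 1.35-fold rise (log2 fold change 0.43 ± 0.0644 SE, edgeR adjusted p = 0.0181). The call held without IPRN 1 (0.0269) and was lost with any other library left out (0.0557 to 0.0885). Lpl, the lipase that ANGPTL4 inhibits, had 42.4, 38.7 and 42.5 CPM in IPRN and 48.0, 50.1 and 48.4 CPM in DMSO libraries. All IPRN values were lower, but the difference did not pass (log2 fold change -0.24, 95% interval -0.40 to -0.09, edgeR adjusted p = 0.0791). DESeq2 called it. Plin2, which coats lipid droplets, had 118, 139 and 147 CPM in IPRN and 155, 147 and 159 CPM in DMSO libraries, with IPRN 1 the lowest (log2 fold change -0.19, adjusted p = 0.258).

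The receptor genes did not pass or were too low to test. Ppard, the widely expressed PPARδ gene, had 33.5, 56.7 and 54.4 CPM in IPRN and 55.2, 35.4 and 54.8 CPM in DMSO libraries. IPRN 1 and DMSO 2 stood well below the other 4 libraries, and the 95% interval of its log2 fold change, -0.58 to 0.57, was wide for a gene at this level. Pparg, the receptor of fat cell formation, had 0, 0.295 and 0 CPM in IPRN and 0, 0.165 and 0.127 CPM in DMSO libraries and did not pass the filter on low counts. In counts these were 0, 22 and 0 in IPRN and 0, 12 and 10 in DMSO libraries. Libraries of a group thus disagreed, and no difference was tested with all libraries in the fit. The floor of 3 counts corresponds to 0.0382 to 0.0497 CPM of the library total, below each nonzero value. Cd36, a fatty acid translocase of fat cells, macrophages and endothelium, had 0.982, 2.35 and 7.72 CPM in IPRN and 0.416, 1.79 and 2.54 CPM in DMSO libraries (log2 fold change 1.21, 95% interval -0.81 to 3.23, edgeR adjusted p = 0.486). IPRN 3 was the highest library for Cd36 as for the macrophage marker Lyz2, at 98.0 CPM against 0.766 to 7.21 CPM in the other 5, and DMSO 1 was the lowest for both. Without IPRN 3 the log2 fold change of Cd36 was 0.07, and without IPRN 3 and DMSO 1 it was -0.38.

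**Figure D4:**
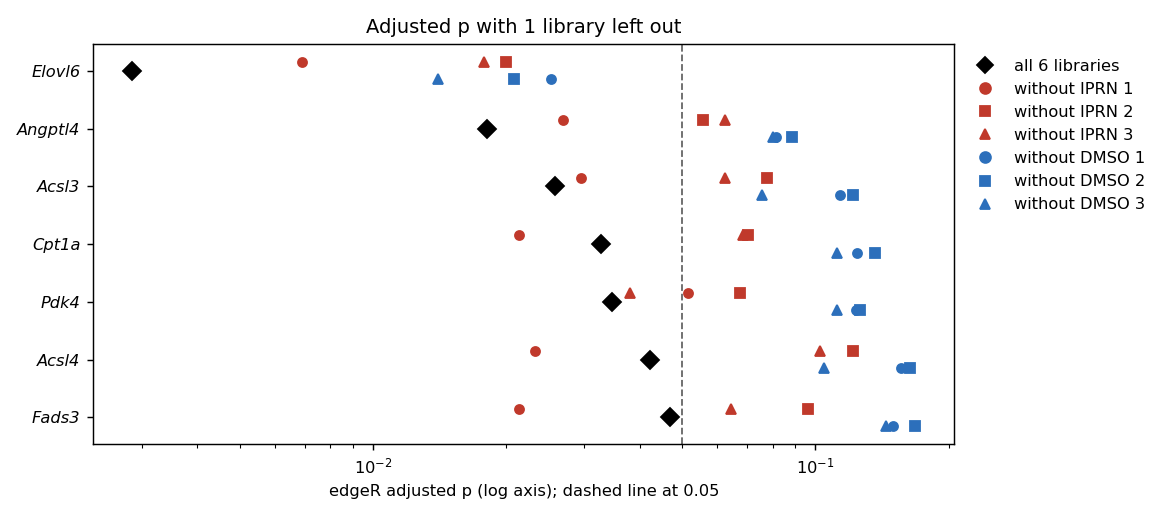
Adjusted p from edgeR for the 7 genes that changed, on a log axis, with all 6 libraries (black diamonds) and with 1 library left out (red for IPRN, blue for DMSO libraries). Elovl6 stays left of the dashed line at 0.05 throughout, while the other 6 genes cross it when any DMSO library is left out.

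Genes of the same routes outside the list were counted from the same fit. The share of all tested genes at an unadjusted p under 0.05 was not counted for these lists either. Of 35 other lipogenic genes and regulators 32 were tested, of which 2 rose, 2 fell and 28 stayed below the threshold (median 0.028 on the log2 scale). That was 12.5% called in edgeR, against the background of 5.47%, with 6 higher and 5 lower at an unadjusted p under 0.05, and DESeq2 called 5 as higher and 4 as lower. Insig1, the gene of a protein that retains SCAP, fell 1.81-fold and was called whichever library was left out. It had 95.8, 94.1 and 97.4 CPM in IPRN and 168, 173 and 179 CPM in DMSO libraries. Mid1ip1, which promotes polymerisation of acetyl-CoA carboxylase, fell 1.30-fold to 49.6 ± 0.563 CPM in IPRN, against 64.6 ± 1.06 CPM in DMSO cells (SD, n = 3 each; edgeR adjusted p = 0.0125). Scap rose 1.25-fold (edgeR adjusted p = 0.0338), but in none of the fits with 1 library left out was it called (0.0502 to 0.135). Pgd, an NADPH-producing enzyme of the pentose phosphate pathway, rose 1.18-fold (edgeR adjusted p = 0.0276). Mid1ip1 and Pgd were called without IPRN 1 and not with any other library left out, and Mid1ip1 and Scap share exon stretches with models on the opposite strand.

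The transcription factors of these routes did not pass. Srebf1, which encodes SREBP1, had 56.5, 59.4 and 55.8 CPM in IPRN and 49.3, 49.0 and 49.8 CPM in DMSO libraries, higher in each IPRN library (log2 fold change 0.21, 95% interval 0.08 to 0.34, edgeR adjusted p = 0.0729). It shares an exon stretch with Rai1. Srebf2 had 197, 258 and 273 CPM in IPRN and 271, 260.0 and 299 CPM in DMSO libraries (adjusted p = 0.445). Mlxipl, the gene of the glucose-responsive factor ChREBP, and Nr1h3, the gene of the oxysterol receptor LXRα, reached at most 0.407 and 0.365 CPM in any library. Ppara was at most 0.182 CPM and was not tested. Ppargc1a, a coactivator of oxidation genes, had 0.631, 0.469 and 0.590 CPM in IPRN and 0.949, 1.13 and 1.13 CPM in DMSO libraries, lower in each IPRN library (log2 fold change -0.92, 95% interval -1.65 to -0.20, edgeR adjusted p = 0.133).

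Of 37 further oxidation genes 36 were tested, of which 0 rose and 1 fell in edgeR, with 3 higher and 6 lower at an unadjusted p under 0.05, and 2 rose and 3 fell in DESeq2. The gene that fell was Pdp1, the phosphatase that opposes the pyruvate dehydrogenase kinases, with 13.4, 14.1 and 14.1 CPM in IPRN and 19.2, 20.3 and 19.8 CPM in DMSO libraries (1.42-fold, edgeR adjusted p = 0.0193). Of 24 tested genes of glycerolipid synthesis and storage, 1 rose and 0 fell in edgeR, with 2 higher and 2 lower at an unadjusted p under 0.05, and 1 fell in DESeq2. The gene that rose was Slc27a4, a fatty acid transport protein, at 51.9 ± 0.985 CPM in IPRN and 41.0 ± 1.28 CPM in DMSO cells (SD, n = 3 each; 1.27-fold, edgeR adjusted p = 0.0247). Pdp1 and Slc27a4 were called without IPRN 1 and not with any other library left out. These lists, at 2.78% and 4.17% called, were near the background of 5.47%.

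Set beside the sterol synthesis and uptake genes, which SREBP2 drives and which share SCAP and INSIG with this pathway, the fatty acid synthesis genes differed in their counts. Of 21 tested sterol genes 12 fell and 0 rose in edgeR (16 lower and 0 higher at an unadjusted p under 0.05; 14 fell and 0 rose in DESeq2), with a median log2 fold change of -0.46, and 5 of the 12 held in each fit that dropped 1 library. Without IPRN 3 and DMSO 1 together 0 were called in edgeR, with 14 lower at an unadjusted p under 0.05. The share of all tested genes at that level was not counted in either fit. Of 13 synthesis genes 1 fell and 1 rose, with a median of 0.031. The log2 fold change of Elovl6, -0.60, lay within the range of the sterol genes that fell, -0.75 for Idi1 to -0.39 for Pmvk. That range holds called genes only. Over all 21 tested sterol genes it ran from -0.75 to 0.034, and Scd1, Acaca and Fads1 also lay within it, with Fasn above it. The difference between the lists was not tested.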

How the data were processed

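The authors deposited 1 table per library; per the file headers each holds raw counts, without normalization, and FPKM values, scaled by gene length and library size, for 55401 Ensembl genes. The submitters' processing notes list cutadapt 1.9, an adapter trimmer. For the aligner, counting tool and build the sources used here give no name. GENCODE M21 holds 55141 of the IDs, 94.2% at the same GRCm38 position, so that build is named. The kit described in the labels' protocols does not mark strand, so genes with shared exon stretches are uncertain.

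The quasi-likelihood test of edgeR 4.0.16 (R 4.3.3) was run on counts after its expression filter (minimum count of 10) and TMM normalization, comparing groups with no covariate. Two-sided p-values were adjusted over 17159 genes (Benjamini-Hochberg) and called under 0.05. Standard errors came from the fold change and F statistic, and 95% intervals are not adjusted. Values are TMM-normalised CPM; FPKM served only for levels between genes. Libraries of a group differed beyond sampling noise, with chi-square values per degree of freedom of 34.0 to 40.4 between DMSO libraries. Between IPRN libraries they were 89.9 and 97.6 for the pairs with IPRN 1, and 48.8 for IPRN 2 with IPRN 3. Floors cover counting error only.

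The members and gene lists were chosen with earlier results of these data known, so their counts and medians carry no test. Counts at an unadjusted p under 0.05, for members or other lists, were not set beside the share over all tested genes. All members are named, and values in every library are given for called members and for a fixed list of enzymes and receptors. Other genes are named where called, or as fixed regulators. DESeq2 1.42.0, limma 3.58.1 and other filters, scalings and sets of libraries were alternatives.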

Additional observations from a re-analysis of the deposited data

How the results depend on the processing

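Counts of changed genes depended on the libraries used. All tested genes gave 938 calls with 6 libraries, 621 with no filter on low counts, 2283 in DESeq2, 53 with DMSO 1 and IPRN 3 both left out, 429 with a covariate marking the libraries that held liver transcripts, and 133 to 1047 with 1 library left out. Members that were higher numbered 3, and 0 with DMSO 1 and IPRN 3 both left out, 1 with the liver term and 0 to 3 with 1 library left out. Members that were lower numbered 4, and 9 in DESeq2, 0 with DMSO 1 and IPRN 3 both left out, 2 with the liver term and 1 to 4 with 1 library left out. Among the fits with 1 library left out, that without IPRN 1 gave 1047 calls over all tested genes. Those without IPRN 2 or IPRN 3 gave 235 and 262, and those without a DMSO library 133 to 185. What these differences come from was not tested. The synthesis median ran from -0.0315 to 0.0593 and the oxidation median from 0.00871 to 0.0687 with 1 library left out. None of the 7 called members changed direction in any of the 16 alternatives, and RLE, upper-quartile and total-count scaling, a filter at a mean of 50 counts, limma-voom and DESeq2 kept their calls. With no filter on low counts Fads3 and Acsl4 were lost. No pairing by replicate number was visible (correlations of same-numbered deviations -0.18, 0.09 and -0.13). With 3 libraries per group these values cannot exclude that same-numbered libraries were handled together. Over all pairs of an IPRN with a DMSO library, the highest correlation was 0.24, for IPRN 3 with DMSO 1. These were the libraries almost free of liver transcripts, and the source of the correlation was not tested. With replicate number as a block 103 genes were called, with 0 members higher and 1 lower, Elovl6 (adjusted p = 0.0350). Pparg did not pass the filter on low counts with 6 libraries. With DMSO 1 and IPRN 3 both left out it passed, and all 35 members were tested.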
